A study of Mus musculus with 32 samples.

Results

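The 44 protein-coding genes of the mouse that encode collagen chains were followed through 32 RNA-seq libraries of whole lung. A gene was a member when the submitters' count table marked it as protein coding and its complete symbol read Col, digits, a, digits. The rule drew on no measured value, and it took 44 of the 35275 genes in that table, of which 22026 are marked protein coding. The study had 2 experiments in C57B/6 mice, with poly(A) RNA from lung and 16 libraries in each. In experiment 1, neither sex had surgery: 3 libraries came from females in room air, 5 from females in cigarette smoke, 3 from males in room air and 5 from males in cigarette smoke, all after 5 months. In experiment 2 every mouse was a female in cigarette smoke, so it holds no air control: 3 sham-operated and 3 ovariectomised libraries came from 3 months of exposure, and 5 sham-operated and 5 ovariectomised libraries from 5 months. The labels give no age, and they do not say that each library is a separate animal, so the p-values measure the spread between these libraries. Library titles are consecutive within each group. In experiment 2 they begin SA at 3 months and SB at 5 months, and in experiment 1 they begin SE. The labels do not say what the titles record, so any order of handling that they follow cannot be told apart from the groups.

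Collagens are trimers of alpha chains, each chain from its own gene, wound into a triple helix. The fibrillar collagens (types I, II, III, V, XI, XXIV and XXVII) form the cross-linked fibrils that carry tension in the airway wall, the vessel wall and the alveolar septum. Type IV collagen is the network of basement membranes: the α1 and α2 chains make the widespread form, and the α3, α4 and α5 chains make the form found in the thin basement membrane shared by alveolar epithelium and capillaries. Type VI collagen forms beaded microfilaments around cells, and the FACITs (fibril-associated collagens with interrupted triple helices, here types IX, XII, XIV, XVI, XIX, XX and XXII) bind along other fibrils. By these classes the 44 genes comprise 11 fibrillar, 6 basement membrane, 6 beaded filament, 9 FACIT, 4 transmembrane, 3 short-chain network and 2 multiplexin members, 1 anchoring fibril member (Col7a1) and 2 others (Col26a1 and Col28a1).

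Several of these genes sit beside each other, and the type IV genes are transcribed in opposite directions from a common start region. On the GRCm38 build of the deposited table, Col4a1 (ENSMUSG00000031502) spans bases 11198423 to 11312826 of chromosome 8 on the minus strand, and Col4a2 (ENSMUSG00000031503) spans 11312805 to 11449287 on the plus strand. Their spans overlap by 22 bases. Col4a4 (ENSMUSG00000067158; chromosome 1, 82448423 to 82586849, minus strand) and Col4a3 (ENSMUSG00000079465; chromosome 1, 82586921 to 82722059, plus strand) are 71 bases apart. Col4a6 and Col4a5 on chromosome X are 1308 bases apart. Col3a1 (ENSMUSG00000026043; chromosome 1, 45311538 to 45349706, plus strand) and Col5a2 lie 24614 bases apart.

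The start regions of both autosomal type IV pairs are shown because the chains of one pair fell with smoke in males, while Col4a3 of the other rose in both sexes, and that of Col3a1 because it had the highest mean level over all libraries. Each is a RefSeq window of 300 bases on GRCm38.p6, 250 before and 50 after the start, read 5′ to 3′ on the strand of the named gene, with capitals for matches to the TATA box (TATAAA), the CCAAT box (its 5 letters) or the GC box (GGGCGG) on either strand.
Col4a1, chr8:11312777-11313076, minus strand: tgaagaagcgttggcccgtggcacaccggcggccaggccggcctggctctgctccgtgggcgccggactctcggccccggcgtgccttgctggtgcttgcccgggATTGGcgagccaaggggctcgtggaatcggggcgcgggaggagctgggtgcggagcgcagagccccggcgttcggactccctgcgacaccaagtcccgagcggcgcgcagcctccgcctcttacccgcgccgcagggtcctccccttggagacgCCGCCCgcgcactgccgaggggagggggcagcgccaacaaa
Col4a4, chr1:82586800-82587099, minus strand: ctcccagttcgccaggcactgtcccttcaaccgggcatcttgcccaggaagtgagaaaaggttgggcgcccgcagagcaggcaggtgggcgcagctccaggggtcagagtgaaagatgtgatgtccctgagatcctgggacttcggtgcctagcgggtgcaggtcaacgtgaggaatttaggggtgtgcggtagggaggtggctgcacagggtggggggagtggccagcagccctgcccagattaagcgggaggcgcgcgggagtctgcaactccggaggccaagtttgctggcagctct
Col3a1, chr1:45311288-45311587, plus strand: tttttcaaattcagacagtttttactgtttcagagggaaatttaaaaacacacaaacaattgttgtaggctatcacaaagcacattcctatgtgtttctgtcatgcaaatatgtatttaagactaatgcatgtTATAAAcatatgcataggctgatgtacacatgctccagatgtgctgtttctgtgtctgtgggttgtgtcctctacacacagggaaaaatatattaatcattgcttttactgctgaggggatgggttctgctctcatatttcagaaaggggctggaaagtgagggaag
In the first window, Col4a1 begins at position 251 and Col4a2, on the other strand, at position 272. It holds a CCAAT box at positions 106 to 110 and a GC box at positions 260 to 265, both on the other strand, and it shares 78 bases with the Col4a2 window. In the next, Col4a4 begins at position 251 and Col4a3 at position 179, and none of those 3 motifs occurs. The Col3a1 window holds a TATA box at positions 134 to 139. RefSeq windows were at hand for 35 members, some with more than 1 start, giving 38 windows. The TATA box was in 13.2% of these against 13.6% of the 32851 windows of all genes, the CCAAT box in 34.2% against 37.4%, and the GC box in 60.5% against 35.7%. In the windows shown the matches do not overlap one another, and a match is a description of the letters in the window.

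Collagen transcripts were dominated by a few chains. Levels of different genes are compared here in TPM, a length-corrected share of all transcripts. Over all 32 libraries 6 genes had a mean above 100 TPM: Col3a1 (219), Col4a2 (211), Col4a1 (201), Col6a1 (167), Col1a2 (132) and Col6a2 (106). Col3a1, the single chain of type III collagen, Col4a2 and Col4a1 had group ranges that overlapped widely, so their order does not hold beyond the spread between libraries. Another 14 genes had mean levels of 10 to 100 TPM, among them Col1a1 (93.7), Col4a3 (82.0), Col4a4 (77.1) and Col4a5 (54.3). The mean level was 1 to 10 TPM in 8 genes, 0.1 to 1 in 7 and under 0.1 in 9. The 4 genes with the highest mean TPM made up 50.4% of the TPM of all members, and the first 20 made up 98.1%. By class, basement membrane collagen took 40.2% of the members' TPM, fibrillar collagen 31.3%, beaded filament collagen 18.7%, FACITs 4.56%, transmembrane collagens 3.34% and multiplexins 1.24%. These shares pool air with smoke, and most libraries are smoke: summed fibrillar TPM exceeded summed basement membrane TPM in all 6 air libraries and in 0 of the 26 smoke libraries.

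Some chains were barely counted. Col2a1, the type II chain of cartilage, had at most 9 counts in any library, and Col9a1, a type IX chain, had 0 counts in all 32. In all, 8 members never exceeded 20 counts in any library. Other chains that cartilage also makes were higher, with mean levels of 6.21 TPM for Col27a1, 0.754 for Col11a2 and 0.444 for Col9a3. Of 9 cartilage markers 8 were found in the tables: Acan was at 0 in all 32 libraries and 6 others averaged under 0.5 TPM, while Chad averaged 30.9 TPM. Their summed level ran from 60.5 to 82.3 TPM in female air, 26.1 to 112 in female smoke, 31.1 to 58.9 in male air and 5.34 to 73.6 in male smoke, and from 7.43 to 20.2 in experiment 2.

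**Figure D1:**
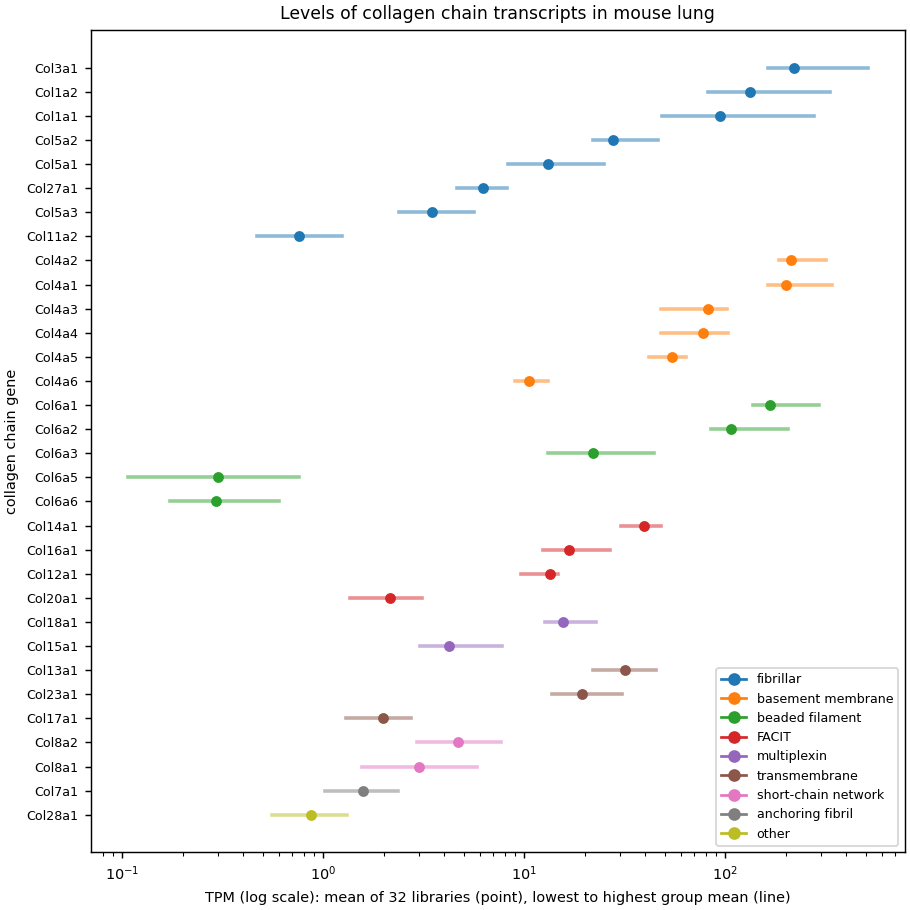
Level of the 32 collagen chain genes counted in all 32 libraries, in TPM on a log axis, grouped by class. Points are means of 32 libraries and lines run from the lowest to the highest of the 8 group means; Col3a1, at 219 TPM, lies highest, and the 12 members with no count in at least 1 library are not drawn.

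Library totals ran from 13790052 to 24497332 counts. One library stood apart in the collagens themselves: of the 3 male air libraries, library 3 had the highest TPM in 19 of the 20 members averaging over 10 TPM, and the main results are also given without it. Albumin, a liver transcript, exceeded 100 CPM (counts scaled to a common library size) in 7 libraries of 5 groups. Of the 44 members, 35 passed the low-count filter in experiment 1 and 34 in experiment 2, so 9 and 10 had no test. A member that passed only through the group where it is high was selected to differ, so the low-count members among the 35 carry little weight.

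The comparison of smoke with air in females asked which chains differ after 5 months of exposure. Of the 35 tested, 11 fell and 2 rose at an adjusted p under 0.05 (edgeR's quasi-likelihood test, Benjamini-Hochberg adjustment over all 16361 genes). That is 31.4% of tested members called lower, against 3.18% of all genes; 4.52% of all genes were called higher and 7.7% in either direction. The median log2 change was −0.40 over the members and −0.01 over all genes. In CPM, 18 members had every smoke library below every air library, and 3 had every one above. Over all genes these shares were 6.47% and 8.04%. Those 18 include Col11a1 and Col6a4, at mean log2 CPM of −1.32 and −1.38, which as low-count members carry little weight. In a bulk library, fewer cells of a type and less RNA per cell cannot be told apart.

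In males the same comparison called 18 of 35 tested members lower and 1 higher, or 51.4% lower against 5.33% of all genes; 4.93% of all genes were called higher and 10.3% in either direction. The median log2 change was −0.50, against 0.01 over all genes. Every smoke library lay below every air library in 19 members (8.21% of all genes) and above in none (8.61% of all genes). Col6a4, a low-count member, is among the 18 called lower and among these 19, and carries little weight in either count. Called in both sexes were 12 members, which is 12 of the 13 called in females and 12 of the 19 called in males. Of those, 11 fell in both and Col4a3 rose in both. The log2 changes had the same sign in 29 of the 35. Neither the shared calls nor the shared signs were counted over all genes, so these counts have no background share.

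**Figure D2:**
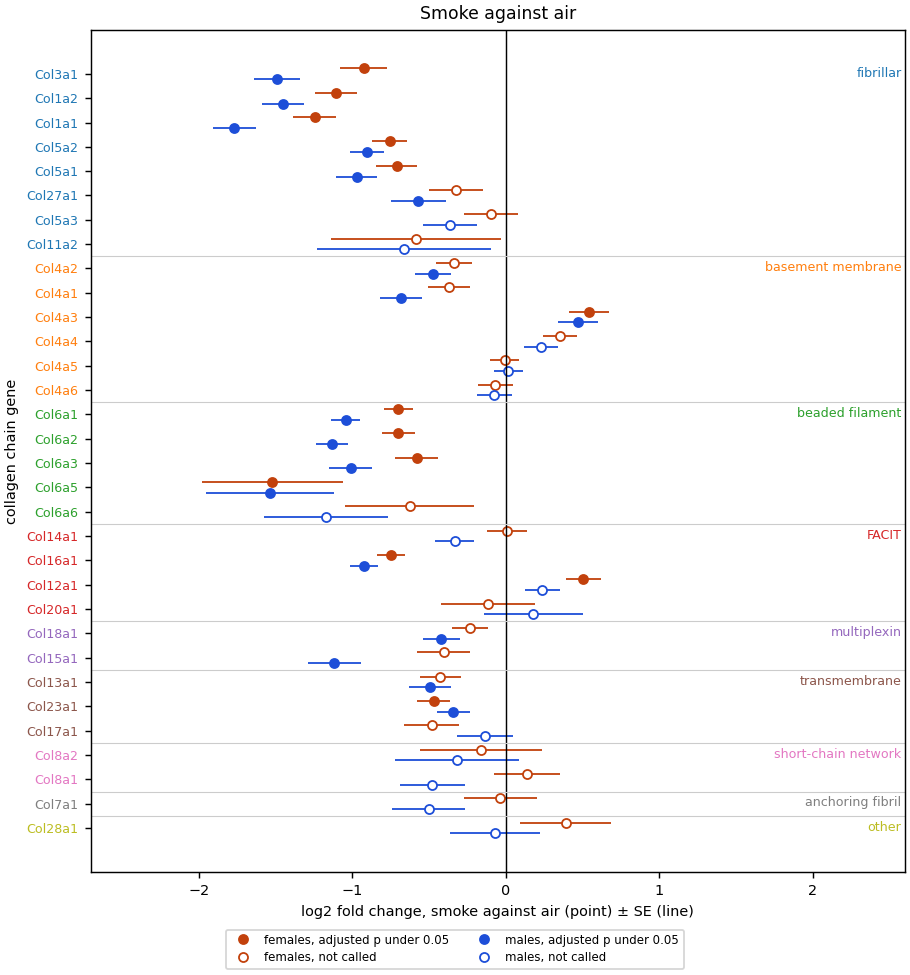
Log2 fold change of smoke against air for 32 collagen chain genes, by class, in females (orange-red) and males (blue). Points are edgeR estimates and lines ± 1 SE, with filled points for an adjusted p under 0.05; the fibrillar and beaded filament chains lie left of 0, and Col4a3 lies right of it in both sexes at 0.54 and 0.47.

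Fibrillar chains fell in both sexes: 5 of 9 tested were called lower in females (median log2 change −0.76) and 6 of 9 in males (−0.97). Col1a1, the α1 chain of type I collagen, the main fibril of the lung, had TPM levels of 169, 171 and 181 in female air and 56.9, 61.7, 80.7, 89.5 and 91.5 in female smoke. In males its TPM level was 215, 244 and 371 in air and 70.4, 74.2, 79.1, 80.3 and 87.4 in smoke. The groups did not overlap in either sex, and the air libraries spread more in males. The fall was 2.37-fold in females (log2 −1.25, SE 0.14, adjusted p = 9.65e-05) and 3.41-fold in males (log2 −1.77, SE 0.14, adjusted p = 1.47e-06; edgeR).

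Col1a2, the α2 chain of the same trimer, had TPM levels of 214, 236 and 240.1 in female air, 82.2, 92.9, 111, 132 and 135 in female smoke, 260.3, 293 and 442 in male air, and 108, 111, 118, 123 and 125 in male smoke. It fell 2.16-fold and 2.73-fold (adjusted p = 0.00013 and 4.76e-06). The ratio of Col1a1 to Col1a2 in TPM averaged 0.757 in female air (range 0.725 to 0.790) and 0.688 in female smoke (0.662 to 0.725). In males it averaged 0.832 in air (0.826 to 0.840) and 0.669 in smoke (0.633 to 0.700). The ratio was lower in smoke, with groups that nearly touched in females and lay apart in males, and its difference was not tested.

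Col3a1 had TPM levels of 284, 317 and 331 in female air and 124, 142, 185, 188 and 208 in female smoke. In males they were 367, 438 and 724 in air and 159, 166, 177, 180.1 and 191 in smoke. Neither pair of groups overlapped. The fall was 1.90-fold in females and 2.81-fold in males (log2 −0.93 and −1.49, SE 0.15 in each, adjusted p = 0.00117 and 1.63e-05).

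Col5a1 and Col5a2, type V chains that are built into type I fibrils and limit their diameter, fell too. Col5a2 had TPM levels of 34.0, 39.0 and 40.7 in female air and 20.1 to 25.6 in female smoke, and 33.1, 42.1 and 62.8 in male air and 21.8 to 26.6 in male smoke. It fell 1.69-fold and 1.87-fold (adjusted p = 0.00033 and 3.77e-05). Col5a1 fell 1.63-fold and 1.96-fold (adjusted p = 0.00277 and 0.000147). Col27a1 had log2 changes of −0.32 in females (adjusted p = 0.318) and −0.57 in males (adjusted p = 0.0472). Col5a3, a type V chain at a mean of 3.46 TPM, had log2 changes of −0.09 and −0.36 and passed in neither sex.

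The 3 abundant chains of type VI collagen fell in both sexes. Col6a1 (ENSMUSG00000001119; chromosome 10, 76708792 to 76726168, minus strand) had TPM levels of 202, 207 and 236 in female air and 119.7, 127, 132, 148 and 159 in female smoke. In males its TPM level was 240.3, 275 and 364 in air and 117, 124, 148, 149 and 153 in smoke. The groups were apart in both sexes, with falls of 1.62-fold and 2.06-fold (log2 −0.70 and −1.04, SE 0.09 in each, adjusted p = 0.00013 and 1.47e-06). Col6a2, its partner in the trimer, fell 1.62-fold and 2.19-fold (adjusted p = 0.000358 and 1.62e-06). Col6a3, the longest chain, needed to assemble the trimer, fell by 0.58 and 1.01 on the log2 scale (adjusted p = 0.0176 and 0.000229).

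The other type VI genes were scarce. Col6a5 averaged 0.298 TPM and was called lower in both sexes, 2.87-fold and 2.90-fold (adjusted p = 0.0458 and 0.0215). Col6a6, at a mean of 0.292 TPM, had log2 changes of −0.62 and −1.17 (adjusted p = 0.431 and 0.0685). Col6a4 was called lower in males (adjusted p = 0.00207) on 4, 12 and 21 counts in air against 0 in 4 smoke libraries and 1 in the fifth. These counts are too few for a stated fold. It passed the filter on low counts only through the air groups, so the filter favoured a lower level in smoke and its call is no support. Over the class, 4 of 6 were called lower in females and 5 of 6 in males, Col6a4 included, with median log2 changes of −0.70 and −1.15.

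Among the type IV chains, Col4a3 was the only call in females, and Col4a1, Col4a2 and Col4a3 were called in males. Col4a1 had TPM levels of 222, 243 and 260.4 in female air and 153, 185, 204, 208 and 218 in female smoke. In males its TPM level was 254, 292 and 475 in air and 167, 171, 216, 233 and 240.2 in smoke. It fell 1.60-fold in males (log2 −0.68, SE 0.14, adjusted p = 0.00333) and had a log2 change of −0.37 in females that did not pass (adjusted p = 0.119). Col4a2 fell 1.39-fold in males (log2 −0.47, adjusted p = 0.0126) and had a log2 change of −0.34 in females (adjusted p = 0.0866). The counting strand is not given in the sources used here, so reads from the 22 shared bases of this pair cannot be assigned.

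Col4a3, a chain of the alveolar basement membrane network, rose in both sexes. Its TPM level was 37.6, 52.5 and 53.2 in female air and 61.9, 66.1, 73.5, 77.0 and 80.1 in female smoke. In males it was 52.6, 54.9 and 63.5 in air and 54.0, 66.7, 77.7, 93.8 and 95.8 in smoke. The groups were apart in females and overlapped in males by 1 smoke library. The rise was 1.46-fold and 1.39-fold (log2 0.54 and 0.47, SE 0.13 in each, adjusted p = 0.0150 and 0.0262). A lincRNA on the other strand, C430014B12Rik, shares 563 exon bases with Col4a3; it averaged 24.1 counts against 5696.

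Col4a4, its divergent neighbour, had log2 changes of 0.35 and 0.23 that did not pass (adjusted p = 0.0554 and 0.221). Col4a5, the third chain of that network, stood at log2 changes of −0.01 and 0.02 (SE 0.10 in each), and Col4a6 at −0.07 in each sex (SE 0.11 in each). Over all 6 chains the median log2 change was −0.04 in females and −0.03 in males. Relative to Col4a1, the level of Col4a3 in TPM averaged 0.199 in female air (0.155 to 0.237) and 0.372 in female smoke (0.357 to 0.405), and 0.177 in male air (0.134 to 0.217) and 0.375 in male smoke (0.323 to 0.403). These ranges did not overlap between air and smoke in either sex. The ratio of Col4a1 to Col4a2 ran from 0.924 to 1.06 over both female groups, which overlapped. In males it ran from 0.993 to 1.13 in air and from 0.885 to 0.946 in smoke, with no overlap. Neither ratio was tested.

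**Figure D3:**
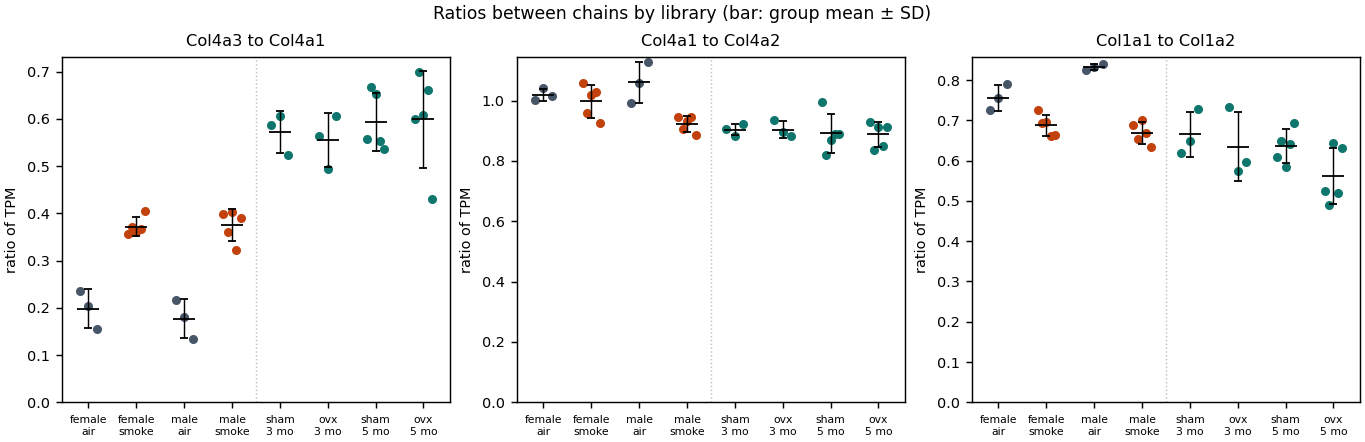
Ratio of TPM between chains in each library, by group: Col4a3 to Col4a1, Col4a1 to Col4a2 and Col1a1 to Col1a2. Points are libraries, bars are group means ± SD and the dotted line separates the experiments; Col4a3 to Col4a1 averages 0.199 and 0.177 in the air groups and 0.372 and 0.375 in the smoke groups of experiment 1.

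The FACITs moved in different directions. Col16a1, the type XVI chain, had TPM levels of 20.1, 23.2 and 25.2 in female air and 12.8, 13.2, 13.8, 14.8 and 15.7 in female smoke, and it was 22.5, 25.0 and 32.1 in male air and 12.2, 12.6, 13.2, 14.9 and 15.0 in male smoke. It fell 1.68-fold and 1.90-fold (SE 0.09 on the log2 scale in each, adjusted p = 7.05e-05 and 1.68e-06). Col12a1, which binds type I fibrils, rose 1.42-fold in females (TPM level 8.71, 9.71 and 10.3 in air, 12.1 to 16.3 in smoke; adjusted p = 0.00822). In males its log2 change was 0.24 (adjusted p = 0.205). Col14a1, the most abundant FACIT at 39.4 TPM, had log2 changes of 0.01 and −0.33 (adjusted p = 0.988 and 0.118).

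Of the other classes, the transmembrane Col23a1 fell in both sexes (1.38-fold and 1.27-fold, adjusted p = 0.00951 and 0.0465), and Col13a1, a collagen of the cell surface, fell in males (1.41-fold, adjusted p = 0.0239) with a log2 change of −0.43 in females (adjusted p = 0.0596). Both multiplexins, whose C-terminal domains can be released as soluble fragments, fell in males. Col15a1 had TPM levels of 5.40, 8.18 and 9.59 in male air and 2.83, 3.05, 3.41, 3.73 and 4.11 in male smoke, a 2.17-fold fall (log2 −1.12, SE 0.17, adjusted p = 0.000253). In females they were 5.71, 6.21 and 7.01 against 3.58 to 6.14 (log2 −0.40, adjusted p = 0.172). Col18a1 fell 1.34-fold in males (adjusted p = 0.0267). Col7a1, of the anchoring fibrils that tie basement membranes to stroma, Col17a1, of hemidesmosomes, Col8a1, Col8a2 and Col28a1 passed in neither sex.

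**Figure D4:**
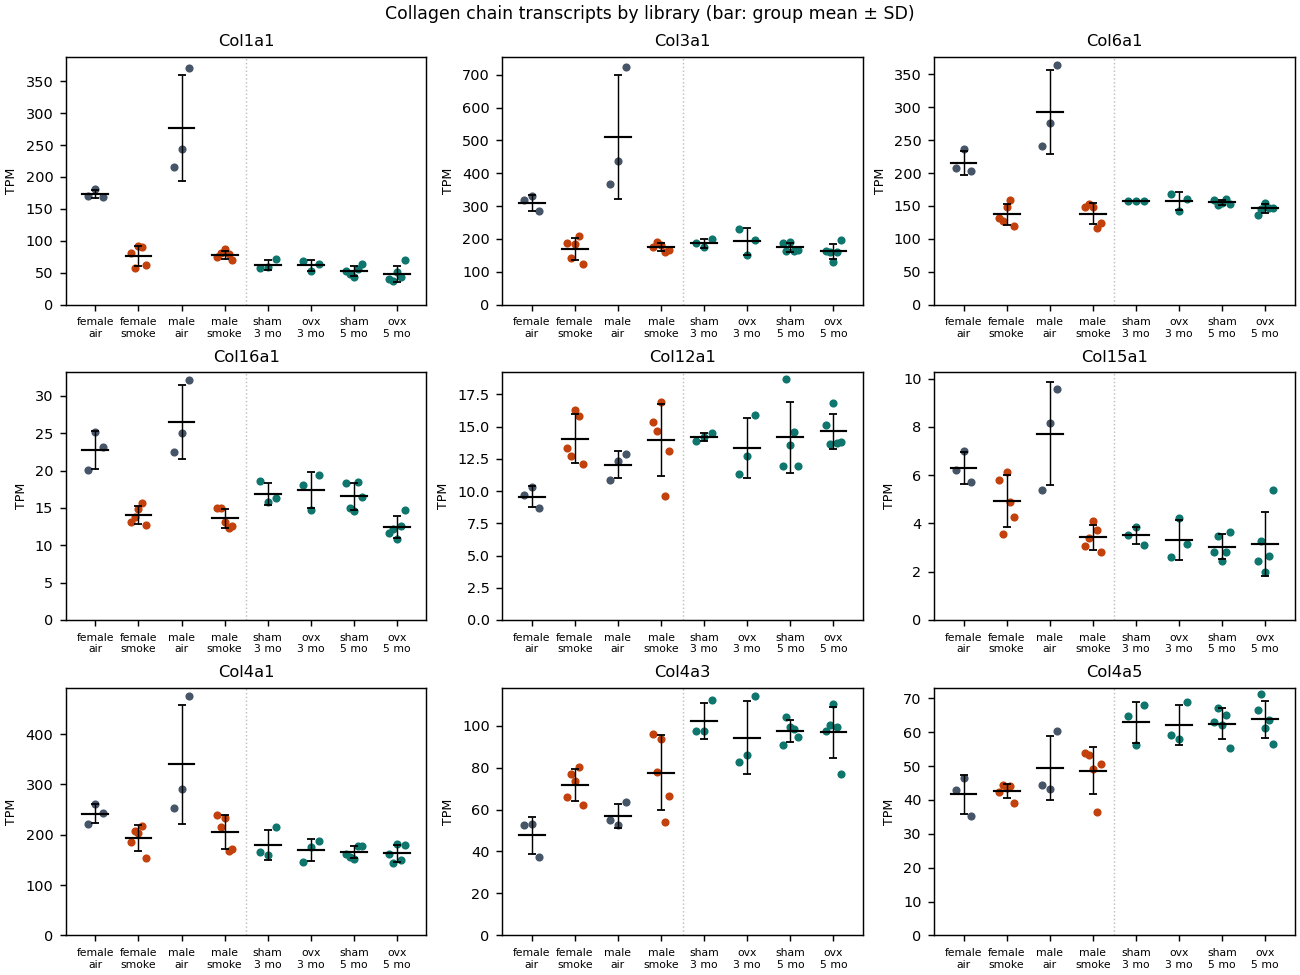
TPM level of 9 collagen chain genes in every library, by group; "ovx" is ovariectomy. Points are libraries, bars are group means ± SD and the dotted line separates the experiments; in Col1a1 all smoke libraries of experiment 1, between 56.9 and 91.5, lie below all its air libraries, between 169 and 371.

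Some calls depended on individual libraries. In females 8 of the 13 calls held when each library in turn, or the libraries over 100 CPM of albumin, were left out: Col1a1, Col1a2, Col3a1, Col5a1, Col5a2, Col6a1, Col6a2 and Col16a1. The number of calls fell to 8 without female air library 3. Without it, Col4a3 (adjusted p = 0.0995), Col12a1 (0.0509) and Col23a1 (0.0735) did not pass; Col6a3 did not pass without any 1 of the 3 female air libraries (adjusted p 0.0512 to 0.0777), nor Col6a5 without female air library 1 or 3 or female smoke library 1, 2, 4 or 5 (0.0530 to 0.169). Col4a3 also did not pass without the albumin libraries (0.0559). In males 12 of 19 held, the same 8 with Col6a3, Col4a1, Col15a1 and Col6a4, the last favoured by the filter. The number of calls fell to 12 without male air library 3. Without it the log2 changes were −1.57 for Col1a1, −1.26 for Col1a2, −1.22 for Col3a1, −0.74 for Col5a1, −0.68 for Col5a2, −0.99 for Col6a2, −0.71 for Col6a3, −0.99 for Col15a1, −0.92 for Col6a1 and −0.43 for Col4a1, and Col4a2 did not pass (−0.28, adjusted p = 0.140). The male calls of Col4a3, Col13a1, Col18a1, Col23a1, Col27a1 and Col6a5 also ended without it, and each ended in 2 to 7 of the other settings, with adjusted p from 0.0502 to 0.166. For Col4a3 those were male air libraries 1 and 2, male smoke libraries 1 and 3 and the albumin libraries (0.0583 to 0.119).

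The interaction of smoke with sex asked whether the change differs between males and females. None of the 35 members passed, and 0.00611% of all genes did; 7 members had an unadjusted p under 0.05, as did 940 of all genes, and DESeq2 and limma also called 0 members. The male log2 change was the more negative in 29 of 35, with a median difference of −0.25. Over all genes, 48.5% had a negative difference and the median was 0.01. Those 7 were Col1a1, Col3a1, Col6a1, Col6a2, Col6a3, Col6a4 and Col15a1; for Col15a1 the difference was −0.71 (SE 0.25, edgeR adjusted p = 0.752). A difference between the sexes was not shown by this test.

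Male and female lungs in air were compared directly. No member passed, against 0.177% of all genes; 16 members had an unadjusted p under 0.05, as did 1517 of all genes. Males were higher in 28 of 35, with a median log2 difference of 0.26 against −0.01 over all genes, and in 14 the 3 male libraries all exceeded the 3 female ones (7.73% of all genes). Col3a1 had a log2 difference of 0.64 (SE 0.17, adjusted p = 0.216) and Col1a1 one of 0.60 (SE 0.16, adjusted p = 0.209). Without male air library 3 these were 0.37 and 0.39, and 11 of 36 tested members were negative. DESeq2 called Col1a1, Col3a1, Col6a1 and Col6a2, while limma called 0. The share of all genes called by DESeq2 is not set beside these calls, so they are not read as a result about the members. These differences and the smoke changes share the same air libraries.

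Males and females were also compared in smoke. No member passed (0.189% of all genes), 7 had an unadjusted p under 0.05, as did 1267 of all genes, DESeq2 and limma called 0, and the median log2 difference was 0.08. Summed over all 44 members, the TPM level was 1972 ± 126 in female air (SD, n = 3) and 2781 ± 781 in male air (SD, n = 3), and 1376 ± 158 in female smoke and 1443 ± 148 in male smoke (SD, n = 5 in each). Without library 3, the remaining male air sums were 2205 and 2468 TPM. The summed fibrillar level averaged 782 and 1201 TPM in air and 400.1 and 414 in smoke, in females and males. The summed basement membrane level averaged 625 and 834 in air and 574 and 631 in smoke. Without library 3, the male air libraries held 905 and 1050 TPM of fibrillar and 670.2 and 733 TPM of basement membrane collagen.

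Genes that process collagen or share its matrix were counted against the same background: 4.52% of all genes were called higher and 3.18% lower in females, and 4.93% and 5.33% in males. Of 30 enzymes and chaperones that modify, fold, cleave or cross-link procollagen, 3 rose and 6 fell in females (median log2 change −0.18) and 3 rose and 9 fell in males (−0.31). Adamts2, which removes the N-propeptide of fibrillar procollagens, fell by 0.85 and 0.98 on the log2 scale, and Fkbp10, a procollagen chaperone, fell by 0.73 and 0.96. In females Plod2, a lysyl hydroxylase that directs cross-links, rose by 0.42, and Plod1, another lysyl hydroxylase, fell by 0.47. The cross-linking oxidases Loxl1 and Loxl2 fell by 0.81 and 0.85 in males. Of 15 basement membrane partners of type IV collagen, 2 rose and 4 fell in females (median −0.17) and 2 rose and 7 fell in males (−0.41). Nid1, which links laminin to type IV collagen, fell by 0.55 and 0.72, and Lamb1, a laminin chain, fell by 0.60 and 0.67. In females Lama3, an epithelial laminin chain, rose by 0.70, and Lama2, another laminin chain, fell by 0.69. The laminin chains Lama4 and Lamc1 each fell by 0.55 in males. Of 9 tested collagen-binding proteoglycans, Ogn rose in both sexes (log2 0.62 and 0.74), and Podn and Prelp fell in males (−0.82 and −0.48). Of 10 collagen receptors none passed in females, and Mrc2, which takes up collagen fragments, fell in males (−0.32). Only the called genes of smallest p in each sex, up to 4 per list, could be named here. A gene named for 1 sex is therefore not shown to differ between the sexes, and the interaction of smoke with sex called 0 genes of these lists.

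The genes whose levels followed single members most closely were found by Pearson's r of log2 CPM over the 16 libraries of experiment 1, after group means were removed. For Col1a1 these were Col1a2 (r = 0.97), Mmp2 (0.94), Col6a2 (0.93), C7 (0.91) and Hdlbp (0.89). Among the closest to Col4a3 were Lama3 (0.93), Hc, Clic5 and Samhd1 (0.92 each). Those for Col15a1 were Crim1 (0.86), Fam206a (0.86), Dnmbp (0.85), Tcf7l1 (0.83) and Fam83g (0.83). The libraries share depth and tissue composition, and these values describe the libraries only.

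Markers of the cells that make and surround collagen are set against those same shares of all genes. These lists, like the processing and matrix lists above, were chosen with earlier results of these data known. Their counts are therefore descriptive and not an independent comparison. Of 11 alveolar type 1 markers, 7 rose in females and 10 in males, and their summed TPM ran from 7332 to 8010 in female air and 8923 to 11447 in female smoke, and from 7856 to 8923 in male air and 9244 to 13121 in male smoke. Of 8 endothelial markers, 5 fell in females and 7 in males, with sums of 1624 to 2084 against 1224 to 1660 and 1990 to 2972 against 1202 to 1578. Smooth muscle markers fell in 4 and 1 of 8, with sums of 522 to 631 against 263 to 422 in females and 520 to 587 against 283 to 495 in males. Pericyte markers fell in 2 and 4 of 8. Fibroblast markers were mixed: of 11 alveolar fibroblast markers 2 rose and 1 fell in females and 1 rose and 2 fell in males, and 3 of 9 adventitial fibroblast markers fell in each sex. All 7 tested erythroid markers rose in females and 0 in males. Their sums ran from 6692 to 8234 in female air against 17895 to 42644 in female smoke. In males the sums overlapped, at 10320 to 35812 in air and 23367 to 33848 in smoke, with a median log2 change of 0.65. The interaction of smoke with sex called 0 erythroid markers. Of 7 mesothelial markers 3 and 1 rose, of 8 alveolar type 2 markers 1 and 0 rose, of 3 cartilage markers tested in experiment 1, 1 and 0 fell, and of 5 tested liver markers 0 and 4 fell; none passed among cardiac muscle, macrophage, airway basal, or club and ciliated markers. Though no club or ciliated marker passed, their summed TPM was apart in females, at 120814 to 151886 in air and 34882.5 to 111887 in smoke. In males it overlapped, at 48648.5 to 127318 in air and 23522.2 to 129613 in smoke. The part of any of these markers in the collagen changes was not tested.

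In experiment 2 all groups were in smoke. Summed over the members, the TPM level averaged 1487 in shams and 1442 in ovariectomised females at 3 months, and 1386 and 1319 at 5 months. Col4a3 averaged 102 and 94.3 TPM at 3 months and 97.5 and 96.9 at 5 months, and its ratio to Col4a1 ran from 0.431 to 0.700 over the 16 libraries. Of the 30 processing genes 1 fell after ovariectomy at 5 months, where 0.776% of all genes fell, and of the 15 basement membrane partners 2 were lower at 5 than at 3 months, where 0.107% of all genes were. The experiments were not tested against each other.

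Ovariectomy was compared with sham surgery at each time. At 3 months no member passed, as for all genes (0%); 2 members had an unadjusted p under 0.05 (Col6a3, log2 −0.38, and Col5a2, −0.25), as did 1568 of all genes, and DESeq2 and limma called 0 members. At 5 months no member passed against 1.36% of all genes; 8 had an unadjusted p under 0.05, as did 2617 of all genes. Col16a1 came nearest: its TPM level was 14.6, 15.1, 16.5, 18.3 and 18.5 in shams and 10.9, 11.7, 12.2, 12.6 and 14.7 in ovariectomised females, a log2 change of −0.34 (SE 0.10, adjusted p = 0.0717). The groups overlapped by 1 library. For Col5a1 the TPM levels of 9.47 to 12.7 and 7.18 to 8.87 did not overlap, as in 1.93% of all genes for lower values, with a log2 change of −0.32 (adjusted p = 0.111). DESeq2 called Col16a1 and Col7a1 at 5 months (Col7a1, log2 −0.89, adjusted p = 0.138 by edgeR), and limma called 0. Here too the share of all genes called by DESeq2 is not given.

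The difference between 5 and 3 months of smoke, averaged over sham and ovariectomised females, was called in Col6a3, against 0.107% of all genes called lower and 0.13% in either direction. Col6a3 had TPM levels of 21.1, 24.2 and 26.3 in shams at 3 months and 13.7, 14.8, 15.9, 17.8 and 18.7 at 5 months. After ovariectomy they were 15.3, 18.8 and 19.5 at 3 months and 11.4, 13.0, 13.3, 13.6 and 14.1 at 5 months. The times did not overlap in either surgery group. The fall was 1.38-fold (log2 −0.47, SE 0.07, adjusted p = 0.00423) and held without each library in turn. Col6a1 and Col6a2, its partners in the trimer, had adjusted p of 0.867 and 0.996 over the same interval. Of 34 tested members 28 had a negative value, with a median log2 change of −0.17 against −0.00 over all genes. All 8 tested fibrillar chains had negative values, with a median of −0.31, though none passed: Col5a1 (−0.35, adjusted p = 0.0626), Col5a3 (−0.68, adjusted p = 0.0636) and Col5a2 (−0.21, adjusted p = 0.0948) came nearest. Over the same interval 1 of 8 pericyte markers was called lower (median log2 change −0.36), and none of 8 endothelial markers passed (median −0.31). Summed pericyte TPM ran from 161 to 241 in shams at 3 months and 112 to 150.3 at 5 months, and from 141 to 158 and 114 to 141 after ovariectomy. Summed endothelial TPM ran from 879 to 1018 and 512 to 903 in shams, and from 619.5 to 889 and 505 to 762 after ovariectomy. No marker of the other lists passed for time. For ovariectomy 2 of 11 alveolar type 1 markers rose at 5 months, where 1.36% of all genes passed in either direction. None of any list passed for ovariectomy at 3 months, nor did any of all genes. The part of these in the collagen values was not tested. The design changes time, length of exposure and the series of library titles together, so age, duration and title series cannot be told apart.

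**Figure D5:**
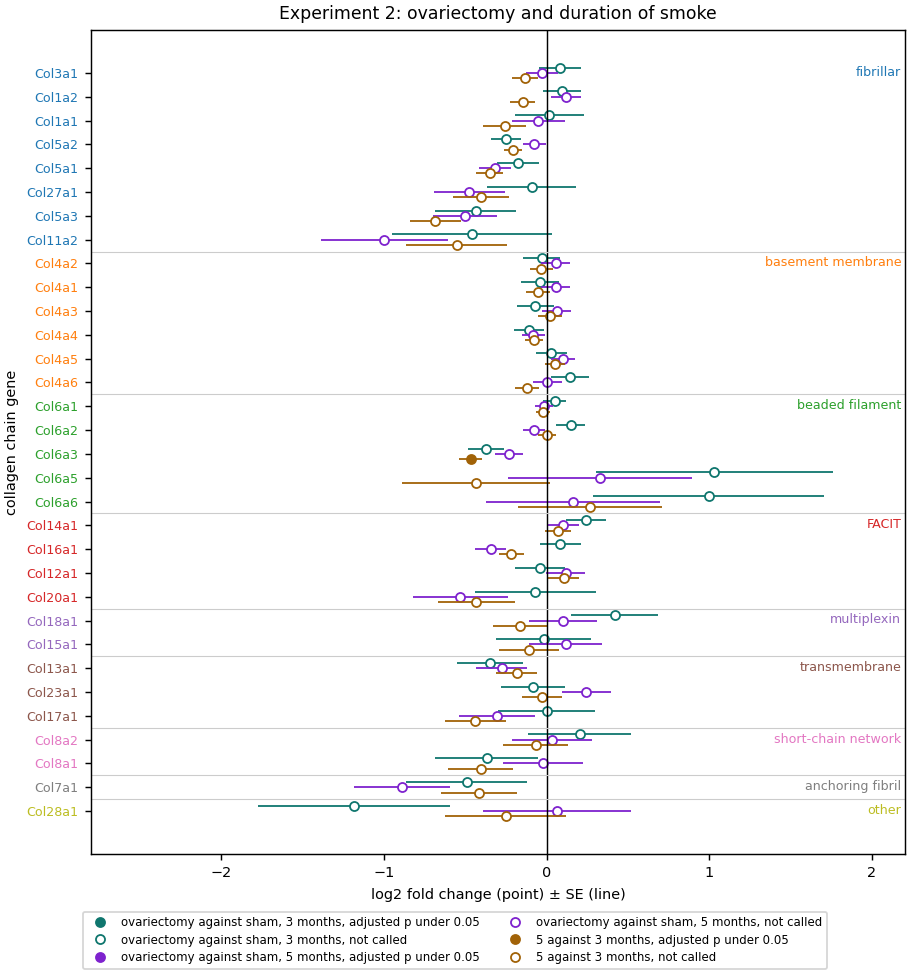
Log2 fold change of 32 collagen chain genes in experiment 2, by class: ovariectomy against sham at 3 and 5 months, and 5 against 3 months of smoke. Points are edgeR estimates and lines ± 1 SE; the single filled point, an adjusted p under 0.05, is Col6a3 at −0.47 for 5 against 3 months.

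The effect of ovariectomy did not pass as different between the times for any of the 34 tested members, as for all genes (0%). Col16a1 alone had an unadjusted p under 0.05 (0.0116, adjusted p = 0.938), as did 844 of all genes, and DESeq2 and limma called 0 members.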

How the data were processed

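Lung RNA was isolated with Trizol and poly(A) libraries were made with the NEBNext Ultra 2 kit, per the labels. The authors deposited whole-number read counts per gene, and a table of normalised values whose unit its header does not name. The deposited values of that table equal TPM computed from the counts and gene lengths (100% of values within 0.0001), so they are called TPM. FastQC, GRCm38 and mm10 are named per the submitters' processing notes. The read aligner, counter and strand used were not given in the sources used here. Totals were 13790052 to 24497332 counts, and replicates differed by more than sampling noise.

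Counts were tested with edgeR 4.0.16 (R 4.3.3): TMM scaling, filterByExpr by group, robust quasi-likelihood fits with a mean per group, the 4 groups of an experiment sharing the spread, and Benjamini-Hochberg adjustment over 16361 genes in experiment 1 and 16874 in experiment 2. The same steps were also run on counts simulated for smoke against air in females only. The other comparisons were not simulated, and the outcome is not given here. Alternatives used DESeq2 1.42.0 and limma 3.58.1 on log2(TPM + 1). The standard error is the log2 change over the square root of F. Ratios and sums use TPM. Sequences are RefSeq's, and positions are those of the deposited table on GRCm38.

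Named with values in each library were the 2 members of highest mean TPM in each class, up to 4 called rises and 4 called falls per comparison, and fixed chain pairs, 26 in all; from other lists, up to 4 called genes of smallest p. Members and lists were chosen with earlier results of these data known. A gene that the likeness rule named is not reported here.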

Additional observations from a re-analysis of the deposited data

Results flagged for a closer look

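Among 104 group-by-gene checks of 26 members in the groups of 5 libraries, 7 had a library whose gap to its nearest neighbour was a large share of the group's range; chance gives about 1 in 20. In ovariectomised females at 5 months, library 5 had the highest Col1a2 level (110.3 TPM, next 84.2) and the lowest Col14a1 level (40.0 TPM, next 46.9). That library also had 1107 CPM of albumin. In male smoke, library 3 was highest for Col18a1 (20.1 TPM, next 16.2), library 2 highest for Col6a5 (0.471 TPM, next 0.240) and library 4 lowest for Col4a5 (36.6 TPM, next 49.1). Col28a1 was lowest in female smoke library 5 (0.650 TPM, next 1.08) and in sham library 2 at 5 months (0.289 TPM, next 0.741).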

How the results depend on the processing

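Under other scaling, filters, tests and left-out libraries no called result of the 26 named members changed sign. Called members numbered 8 in females and 12 in males with limma on log2(TPM + 1), against 13 and 19. The cause was not tested. These counts and those below are of members only, without the share of all genes called in each setting. For males against females in air, against 0, the count was 4 with DESeq2, 2 with all 32 libraries in 1 fit and 1 with the replicate number as a block. For ovariectomy at 5 months, against 0, it was 2 with DESeq2 and 1 with all 32 libraries. For 5 against 3 months, against 1, it was 3 without a filter, 3 with the replicate block, 4 with DESeq2, 3 without the libraries high in albumin and 2 with all 32 libraries. Leaving out 1 library gave 8 to 14 calls in females, 12 to 19 in males, 1 to 4 for time (4 without sham library 1 at 5 months, 3 without ovariectomy library 2 at 3 months), 0 to 1 for sex in air (1 without male air library 1) and for ovariectomy at 5 months (1 without ovariectomy library 5), and 0 elsewhere. Same-numbered libraries did not deviate together on average (mean correlation 0.012 and −0.019). These means cannot exclude a pairing that affects only some genes or libraries. With the replicate block, 14 and 18 members were called in females and males. A fit of only the groups compared was not made for the interactions and the time difference, which need all 4 groups. Genes with few counts, such as Col6a4, are limited by depth.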
